A study of Mus musculus with 38 samples.

Results

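Fibroblasts grown from 5 mouse embryos with hypomorphic Dnmt3b were compared, array by array, with a pool of fibroblast RNA from wild-type embryos. The hypomorphic fibroblasts account for 20 of the 38 arrays of the series: every array labelled MEF1 to MEF5 was taken, with 4 arrays for each of embryos 1 to 5, 2 with the hypomorph in Cy5 and 2 with it in Cy3. The fibroblasts came from embryos at 12.5 days post coitum (dpc). The other 18 arrays hold thymus of 5 hypomorphic embryos at 18.5 dpc, which serves here for contrast. The wild-type channel held 1 pool of 5 wild-type samples of the same tissue and age as the hypomorph. All embryos, hypomorphic and wild-type, were hybrids of 129SvJae and C57BL/6. The fibroblast labels name a culture number only, so the alleles of these embryos are known only as hypomorphic from the series' design text, whereas the labels of nearly all thymus samples give m3/m24. The sources used here do not say how long the fibroblasts were cultured or whether a culture holds 1 embryo. Each value below is a log2 ratio of hypomorph over pool, averaged over both dye orientations of an embryo, so that 0 means the level of the pool and a positive value means more RNA in the hypomorph. That direction is likely rather than stated: the design text names the pool as the reference RNA, and the values show only that both dye orientations run the same way. Were the ratios deposited as pool over hypomorph, every sign and every higher or lower below would turn. All p-values are from limma over 5 embryos unless another number is given, two-sided, adjusted over all features by the method of Benjamini and Hochberg, with 0.05 as the threshold. The pool is 1 control sample whose own spread does not enter these tests.

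Dnmt3b is a DNA methyltransferase that sets new methyl groups on cytosines followed by guanine (CpG) in early development. In a hypomorph the enzyme is made but works poorly, and the human counterpart of this defect is ICF syndrome, an immunodeficiency with unstable pericentromeric DNA. Promoters of a class of germ cell genes are methylated after implantation and stay silent in body cells, and these genes are classical readouts of failed methylation. Embryonic fibroblasts are a mixed mesenchymal culture that makes extracellular matrix, and they differ in origin and growth state from embryo to embryo.

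The promoters of 3 germ cell genes that lay above the pool in every embryo are printed first, because CpG sites in such promoters are the substrate of Dnmt3b. Methylation itself was not measured. Each sequence runs 5′ to 3′ on the gene's own strand from 250 bases before the annotated start through 30 bases after it, from RefSeq on GRCm38.p6, with every CpG in capitals.
Slc25a31 (chr3:40708621-40708900, plus strand): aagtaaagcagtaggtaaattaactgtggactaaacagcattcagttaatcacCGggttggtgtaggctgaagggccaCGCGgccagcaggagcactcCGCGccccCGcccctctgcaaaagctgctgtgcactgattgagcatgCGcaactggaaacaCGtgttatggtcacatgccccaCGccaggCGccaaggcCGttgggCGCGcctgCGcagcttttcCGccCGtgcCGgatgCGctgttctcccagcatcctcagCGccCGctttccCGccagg
Ddx4 (chr13:112652281-112652560, minus strand): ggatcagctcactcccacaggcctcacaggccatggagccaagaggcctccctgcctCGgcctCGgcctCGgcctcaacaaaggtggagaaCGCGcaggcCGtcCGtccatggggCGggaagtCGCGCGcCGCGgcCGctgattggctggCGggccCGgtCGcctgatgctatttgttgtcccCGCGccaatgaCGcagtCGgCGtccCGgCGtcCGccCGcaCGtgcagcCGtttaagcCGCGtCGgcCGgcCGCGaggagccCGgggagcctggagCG
Gpat2 (chr2:127424949-127425228, plus strand): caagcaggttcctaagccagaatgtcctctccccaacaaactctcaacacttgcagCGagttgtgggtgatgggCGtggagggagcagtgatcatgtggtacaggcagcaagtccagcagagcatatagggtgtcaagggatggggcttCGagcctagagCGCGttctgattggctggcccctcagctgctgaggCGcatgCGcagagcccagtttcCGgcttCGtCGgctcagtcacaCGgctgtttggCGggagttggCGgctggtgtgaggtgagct
The 280 bases held 21 CpG in Slc25a31, which encodes a testis ADP/ATP carrier of the mitochondrion. They held 36 in Ddx4, the germ cell RNA helicase also called Vasa, and 13 in Gpat2, an acyltransferase of the male germ line. All 3 windows also hold TCCCGC or its complement GCGGGA, the letters that E2F6 recognises. This match starts 21 bases after the start in Slc25a31, at base -136 in Ddx4 and at base -1 in Gpat2. A promoter of 300 bases was at hand for 14647 measured genes, with the entry of most CpG taken for each gene. Their median was 17 CpG and 29.8% of them held the motif on either strand. Of 64 genes that lay above the pool in all 5 embryos with a mean of at least 0.5, the median was 21.5 CpG and 57.8% held the motif. Of 101 genes that lay below the pool in all 5 with a mean of -0.5 or less, the median was 24 CpG and 40.6% held it. These shares describe base composition and show no methylation and no binding.

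The arrays of an embryo differed among themselves. The medians of the deposited arrays ran between -0.887 and 0.909, and each array was therefore centred on its median. Arrays of the same orientation all correlated above 0, between 0.18 and 0.872 across features. After removal of the mean profile of each orientation, an array's mean correlation with the other arrays of its own embryo ran between -0.183 and 0.423, and 7 of 20 arrays were closer to another embryo than to their own. Array 4 of embryo 4 lay on the opposite side of 0 for 22 of the 23 leading genes it measured: Ifi202b was 0.76 there and between -4.72 and -3.63 on the other 3 arrays of that embryo, and Sfrp2 was -2.41 there and between 2.34 and 2.43 on the others. Array 2 of embryo 1 also stood apart, since the Y-linked gene Eif2s3y was 0.28 there, against -2.08 and -2.21 on arrays 1 and 3 of the same embryo. The 4 arrays of embryo 2 fell into unlike pairs. Decorin (Dcn), a small matrix proteoglycan, was 3.50 and 3.72 on arrays 1 and 4 and 0.16 and 0.14 on arrays 2 and 3. On array 4 of embryo 1 Sfrp2 was 0.71, against 1.71, 2.55 and 1.65 on arrays 1 to 3 of that embryo, while Dcn was 0.14 there and 0.19 and 0.22 on arrays 1 and 3. The profile of that array correlated at 0.872 with array 3 of embryo 2, more than any other 2 fibroblast arrays of 1 orientation. An embryo value is therefore a mean over arrays that in embryos 1, 2 and 4 may not hold the same RNA. Whether labels were exchanged was not tested. The array names fall into 2 series: all arrays of embryos 4 and 5, and 3 of embryo 1, begin with AYT, whereas array 4 of embryo 1 and all arrays of embryos 2 and 3 begin with AYX or AYY. The labels do not say what the series stand for.

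**Figure D1:**
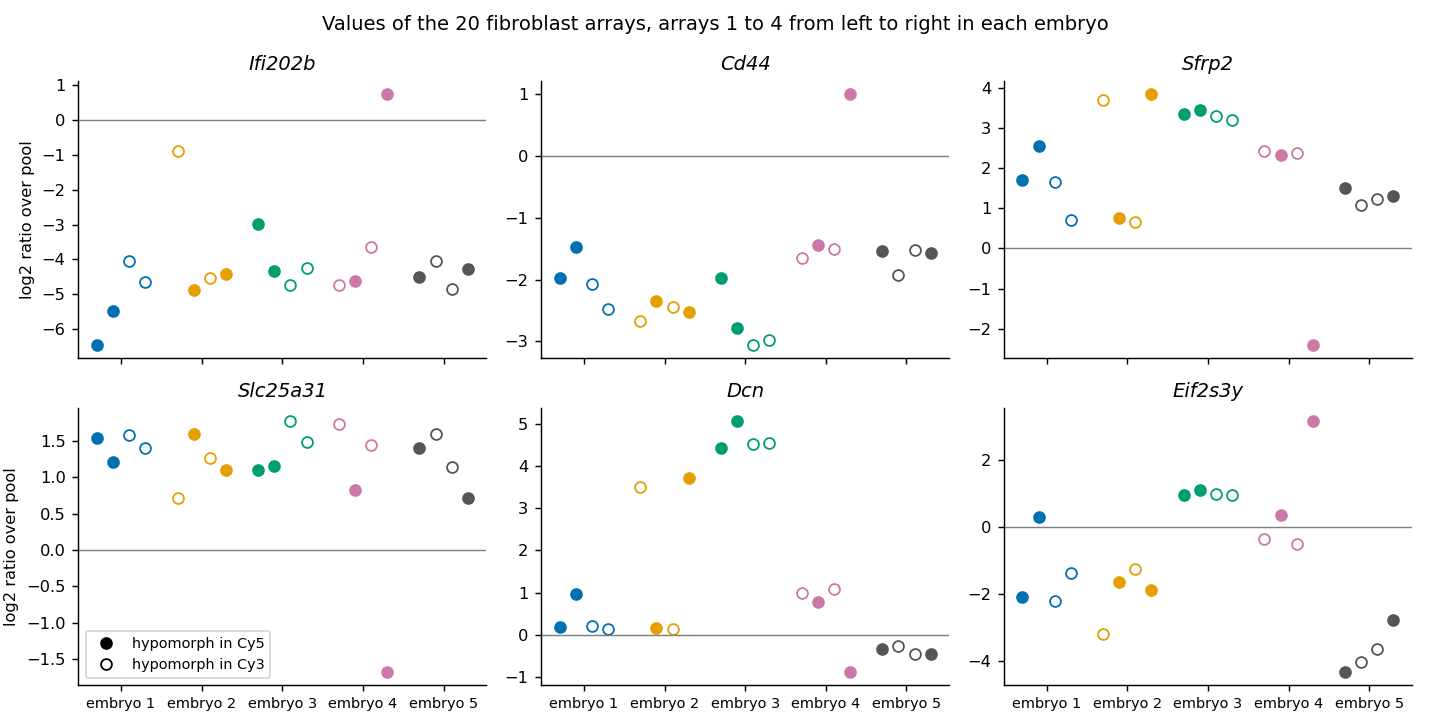
Values of 6 genes on each of the 20 fibroblast arrays, as centred log2 ratios of hypomorph over wild-type pool on the y axis and arrays 1 to 4 of each embryo from left to right, with filled points for the hypomorph in Cy5 and open points for the hypomorph in Cy3. Array 4 of embryo 4 lies across 0 from the other arrays of that embryo for Ifi202b, Cd44, Sfrp2, Slc25a31 and Dcn, and the 4 arrays of embryo 2 fall into pairs for Sfrp2 and Dcn.

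Of 22025 features measured in all 5 embryos, 18258 of them named genes, 1 passed the test (0.00454%). It is a probe without a gene name that had -0.75, -1.0, -0.86, -0.78 and -0.95 in embryos 1 to 5, a mean of -0.87 ± 0.11 (SD, n = 5, adjusted p = 0.0425 by limma), and its mean in thymus was -0.02. At an unadjusted p under 0.05 there were 3532 features. Features above 0 in all 5 embryos numbered 1718 (7.8%) and features below 0 in all 5 numbered 1985 (9.01%). With a mean of at least 0.5 as well, 88 features were higher (0.4%), and with a mean of -0.5 or less 143 were lower (0.649%). No named gene passed, and the smallest adjusted p among the genes named below was 0.0901, for Ifi202b. The folds and ranges below are thus descriptions of 5 embryos unless a test is given.

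The count of calls moved with single arrays. Without array 4 of embryo 4, 83 of 21931 features passed, 19 as higher (0.0866%) and 64 as lower (0.292%). Without that array and arrays 2 and 4 of embryo 1, 7 passed, 3 as higher and 4 as lower. The arrays left out there are not the only ones in doubt. Array 4 of embryo 2 stayed in, at a mean correlation of -0.0158 with its own embryo and 0.253 with embryo 3. Array 2 of embryo 1 had -0.0164 with its own embryo. Arrays 1 and 3 of embryo 1 also stayed in, at 0.123 and 0.022 with their own embryo and 0.229 and 0.259 with embryo 5. Array 1 of embryo 2 had 0.0218 with its own embryo and 0.11 with embryo 3. Every test here takes the 5 embryo values as independent, and whether they are was not tested. Without array 2 or array 4 of embryo 1 alone, none passed. Array 4 of embryo 4 was singled out with the values of the leading genes in view, so their p-values without it are no independent support. With the series of array names as a term (embryos 2 and 3 against embryos 1, 4 and 5), 755 features passed as higher (3.43%) and 566 as lower (2.57%). Of the 83 features, 73 also passed in that fit. Both fits use the same embryos and the term was added after seeing the data, so this overlap is no independent support. No feature passed for the difference between the series, and none passed within either series alone. Embryo profiles correlated most between embryos 2 and 3 (r = 0.669 across features, which are not independent) and least between embryos 3 and 5 (r = -0.105).

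**Figure D2:**
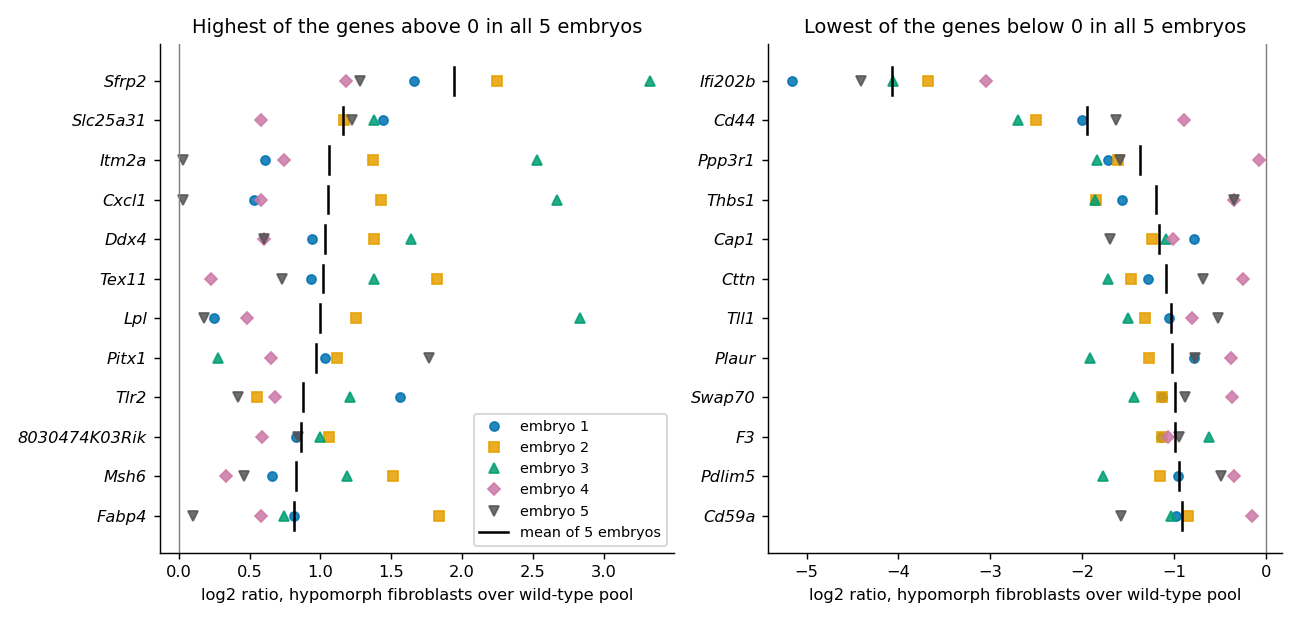
The 12 highest (left) and 12 lowest (right) genes among those of 1 sign in all 5 embryos, with the log2 ratio of hypomorph fibroblasts over wild-type pool on the x axis, a symbol per embryo and a bar at the mean. Sfrp2 and Ifi202b lie farthest from 0, and embryo 4 lies nearest to 0 for 15 of the 24 genes. The embryo 4 values include array 4, which lay on the opposite side of 0 for 22 of the 23 leading genes it measured.

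The gene farthest from the pool was Ifi202b, an interferon-inducible DNA sensor of the Ifi200 family. It had -5.16, -3.68, -4.06, -3.05 and -4.41 in embryos 1 to 5, a mean of -4.07 ± 0.79 (SD, n = 5; 16.8-fold lower, adjusted p = 0.0901 by limma). Every embryo was far below the pool, and 19 of 20 arrays were negative. Without array 4 of embryo 4 its mean was -4.34 and it passed (adjusted p = 0.00576 by limma, and 0.00742 without the 3 doubted arrays, which are that one and arrays 2 and 4 of embryo 1). Arrays of the AYT series averaged -4.17 and those of the AYX and AYY series -3.98, so the difference from the pool was of like size in both. Of 5 measured genes of the Ifi200 family 2 were below 0 in all 5 embryos and none above (9.01% and 7.8% of all features), with a median of -0.10. The other members averaged -0.10 (Ifi203), 0.03 (Ifi205), 0.11 (Ifi209) and -0.10 (Aim2).

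Cd44, the hyaluronan receptor of mesenchymal and lymphoid cells, had -2.0, -2.50, -2.70, -0.90 and -1.64, a mean of -1.95 ± 0.72 (SD, n = 5; 3.86-fold lower, adjusted p = 0.128 by limma). All 5 embryos lay below the pool, and embryo 4 was the nearest to it. On array 4 of embryo 4 Cd44 was 1.0, and without that array its mean was -2.07 and it passed (adjusted p = 0.0343 by limma), but it did not without the 3 doubted arrays (0.0624). Ppp3r1, the regulatory B subunit of the phosphatase calcineurin, had -1.72, -1.61, -1.84 and -1.59 in embryos 1, 2, 3 and 5 but -0.08 in embryo 4. Of 11 calcineurin genes measured, 2 were below 0 in all 5 embryos and 2 above (9.01% and 7.8% of all features), with a median of 0.03. Chp1, a calcium-binding protein related to the calcineurin B subunit, had -1.06, -1.08, -1.10, -0.34 and -0.65. Its mean was -0.85, and all 5 values were negative.

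Of 25 pericellular proteolysis genes measured, 3 were below 0 in all 5 embryos and 2 above, near the 9.01% and 7.8% of all features, and their median was -0.10. F3, tissue factor, which starts coagulation, had -1.15, -1.13, -0.62, -1.07 and -0.95, a mean of -0.99 ± 0.22 (SD, n = 5). Tll1, a metalloprotease that trims procollagens and releases BMPs, had -1.06, -1.32, -1.50, -0.81 and -0.53. Plaur, the urokinase receptor, had -0.79, -1.28, -1.92, -0.39 and -0.78. Each of these was negative in all 5 embryos, but neither F3 (adjusted p = 0.115) nor Tll1 (0.13) nor Plaur (0.154) passed limma's test, also without array 4 of embryo 4 (0.0645, 0.0546 and 0.0801). The membrane-bound collagenase Mmp14 lay on the other side, at 0.35, 0.81, 1.73, 0.30 and 0.25, and was highest in embryo 3. Stromelysin Mmp3 had 0.55, 2.50, 4.26, 0.67 and -0.16 and was highest in embryo 3 and lowest in embryo 5. Cd59a, which protects cells from complement, had -0.98, -0.85, -1.04, -0.16 and -1.58.

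Actin regulators lay mostly on the lower side. Of 38 measured, 9 were below 0 in all 5 embryos and 1 above, against 9.01% and 7.8% of all features. The median of the list was -0.20, against 0.05 in thymus and -0.002 over all features in fibroblasts. The list was chosen with earlier results of these data known, so its counts are no independent support. It holds Cap1, Cttn, Swap70 and Pdlim5, which are among the 12 lowest genes. Cap1, a cyclase-associated protein that recycles actin monomers, had -0.79, -1.24, -1.09, -1.02 and -1.70, a mean of -1.17 ± 0.34 (SD, n = 5; 2.25-fold lower, adjusted p = 0.115 by limma). Its 5 embryos were all negative, and without array 4 of embryo 4 it passed at a mean of -1.29 (adjusted p = 0.0394 by limma), but it did not without the 3 doubted arrays (mean -1.14, 0.163). Cttn, cortactin, which stabilises branched filaments, had -1.29, -1.47, -1.72, -0.26 and -0.69. Swap70, an actin-binding exchange factor for Rac, had -1.13, -1.13, -1.44, -0.37 and -0.89. Pdlim5, a linker of filaments to kinases, had -0.96, -1.16, -1.78, -0.35 and -0.49. In these 3 genes embryos 1, 2 and 3 lay lowest and embryo 4 highest. The embryo 4 values include array 4, at 0.54 for Cttn, 0.19 for Swap70 and 0.88 for Pdlim5. The other arrays of embryo 4 lay between -0.78 and -0.13, -0.69 and -0.36, and -0.90 and -0.60, so its place rests in part on that array. Twf1, the monomer-binding twinfilin, averaged -0.79, and Capzb, a capping protein subunit, -0.48, both negative in all 5 embryos. The list as a whole did not hold in every embryo. Its median was -0.10, -0.30, -0.54 and -0.16 in embryos 1 to 4 and 0.13 in embryo 5. Embryo 5 was also the highest for 2 members chosen after their values were seen: Actn1, the crosslinker alpha-actinin, had -0.55, -1.53, -1.78 and -0.91 in embryos 1 to 4 and 1.42 in embryo 5, and fascin, Fscn1, had 0.06, -1.42, -1.82, -0.94 and 1.68. Without array 4 of embryo 4, 2 of the 38 passed as lower (0.292% of all features) and none as higher, and with the series of array names as a term 11 passed as lower (2.57% of all features) and none as higher.

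The smooth muscle contractile genes had a median of -0.15 over 12 measured, with 1 below 0 in all 5 embryos and 1 above (9.01% and 7.8% of all features). Actg2, enteric smooth muscle actin, had -0.69, -1.19, -1.79, -0.35 and -0.06, and skeletal Acta1 had -0.62, -1.19, -1.90, -0.02 and -0.17. Both were lowest in embryo 3. Actg2 was nearest to the pool in embryo 5 and Acta1 in embryo 4. That Acta1 value rests on array 4 at 2.38, since the other arrays of embryo 4 lay between -1.09 and -0.59. Of 25 integrin and focal adhesion genes 2 were below 0 in all 5 embryos and none above, a count below near the 9.01% of all features, with a median of -0.08. Itgb5, an integrin subunit for vitronectin, averaged -0.30.

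The gene farthest above the pool was Sfrp2, a secreted Wnt antagonist of mesenchyme. It had 1.66, 2.25, 3.33, 1.18 and 1.28, a mean of 1.94 ± 0.88 (SD, n = 5; 3.84-fold higher, adjusted p = 0.13 by limma). All 5 embryos were above the pool, and embryo 3 was the highest. Embryo 2 averaged arrays at 3.71 and 3.86 with arrays at 0.77 and 0.66. Without array 4 of embryo 4 the mean was 2.18 and the gene did not pass (adjusted p = 0.0522 by limma). Other secreted antagonists did not share the pattern in every embryo. Dkk1 was below 0 in all 5 embryos at a mean of -0.34, Dkk2 had 0.45, 1.04, 2.43, 0.84 and -0.12, and Sfrp1 had 0.04, 0.70, 2.32, -0.16 and 0.35. Of 11 measured antagonists, 1 was above 0 in all 5 embryos and 1 below. Of 20 Wnt ligands, receptors and targets, 3 were above and 4 below. Over all features 7.8% were above 0 in all 5 embryos and 9.01% below. The ligand Wnt5a (-0.41) and the receptor Fzd7 (-0.64) were on the lower side. Ror2, the Wnt5a coreceptor (0.67), and Tcf7l2, a nuclear partner of beta-catenin, were on the higher side. Tcf7l2 had 0.43, 0.31, 0.49, 0.33 and 0.54, all of like size, and passed without array 4 of embryo 4 (mean 0.48, adjusted p = 0.0377 by limma) but not without the 3 doubted arrays (0.0668).

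Several germ cell genes lay above the pool. Slc25a31, whose promoter is printed above, had 1.44, 1.17, 1.38, 0.58 and 1.22, a mean of 1.16 ± 0.34 (SD, n = 5; 2.23-fold higher, adjusted p = 0.115 by limma). It was positive on 19 of 20 arrays, and the exception was array 4 of embryo 4 (-1.68). Without that array its mean was 1.28 and it passed (adjusted p = 0.00576 by limma), and it also passed without the 3 doubted arrays (mean 1.31, adjusted p = 0.00742 by limma). Ddx4 had 0.94, 1.38, 1.64, 0.60 and 0.60, and Tex11, an X-linked meiotic crossover gene, had 0.93, 1.82, 1.38, 0.23 and 0.73. Both were above the pool in all 5 embryos and passed neither in all arrays (adjusted p = 0.13 and 0.166 by limma) nor without array 4 of embryo 4 (0.051 and 0.0898). Gpat2 had 0.72, 1.23, 0.93, 0.38 and 0.46.

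The same genes were measured in thymus. Slc25a31 averaged 1.16 ± 0.34 in fibroblasts and 2.23 ± 0.59 in thymus (SD, n = 5 each), a difference of -1.07 that did not pass (adjusted p = 0.0993 by limma over 10 embryos). Ddx4 averaged 1.03 in fibroblasts and 0.93 in thymus, and Mael, a piRNA pathway gene, 0.36 and 0.58. Tex11 averaged 1.02 in fibroblasts and 1.85 in thymus, and Gpat2 0.74 and 1.42. Neither of these 2 differences passed (adjusted p = 0.252 for Tex11 and 0.159 for Gpat2 by limma over 10 embryos). Of 11 germ cell genes that the study is remembered for, a list chosen with its results known, 5 were above 0 in all 5 fibroblast embryos and none below (7.8% and 9.01% of all features), with a median of 0.25 in fibroblasts and 0.33 in thymus. With the series of array names as a term 6 of the 11 passed as higher (3.43% of all features). Stag3, a meiotic cohesin subunit, averaged -0.03 and Tex101, a testis surface protein, -0.01. Of 55 other germ cell and meiosis genes 11 were above 0 in all 5 embryos and 4 below (7.8% and 9.01% of all features), with a median of -0.00. Tex15, a meiotic recombination gene, had 0.42, 0.87, 0.63, 0.17 and 0.20, and Taf7l, a testis paralogue of a TFIID subunit, had 0.34, 0.91, 0.50, 0.14 and 0.39. Piwil2, a piRNA-binding protein, averaged 0.29, whereas the pluripotency genes Pou5f1 (-0.03) and Nanog (-0.05) and the meiotic entry gene Stra8 (0.01) were at the pool. 8030474K03Rik, a gene of little known function, had 0.83, 1.06, 1.0, 0.59 and 0.84, a mean of 0.86 ± 0.18 (SD, n = 5), and 1.09 in thymus. It passed without array 4 of embryo 4 (mean 0.94, adjusted p = 0.00576 by limma) and without the 3 doubted arrays (0.00742).

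**Figure D3:**
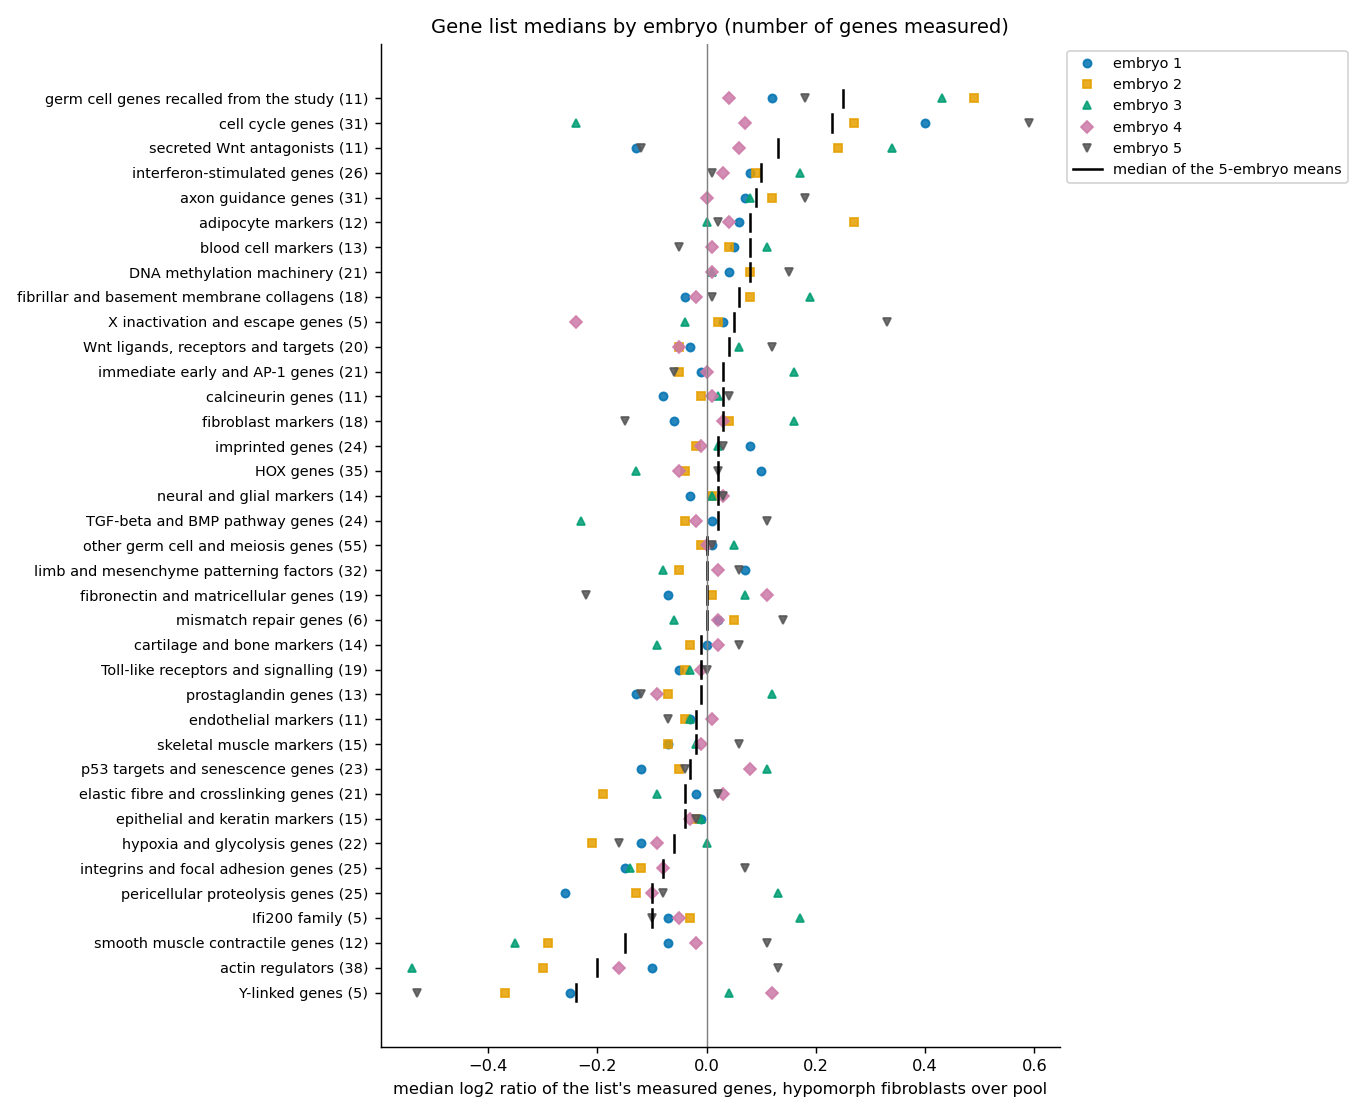
Median log2 ratio of hypomorph fibroblasts over wild-type pool for the measured genes of each list (x axis), with a symbol per embryo and a bar at the median of the 5-embryo means, and the number of measured genes in parentheses. The medians of most lists lie near 0, those of the 11 recalled germ cell genes, the interferon-stimulated genes and the DNA methylation machinery lie above 0 in every embryo, and those of the actin regulators and cell cycle genes lie on opposite sides of 0 in different embryos.

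Among the other genes above the pool, several were led by embryo 3. Itm2a, a membrane protein of chondrogenic and myogenic precursors, had 0.61, 1.37, 2.53, 0.74 and 0.03. The chemokine Cxcl1 had 0.53, 1.43, 2.67, 0.58 and 0.03, and Lpl, lipoprotein lipase, had 0.25, 1.25, 2.83, 0.48 and 0.18. In all 3 genes embryo 3 was highest and embryo 5 lowest. Fabp4, the adipocyte fatty acid carrier, was highest in embryo 2 (1.84), from arrays at 3.40, 0.09, 0.26 and 3.62, and lowest in embryo 5 (0.10). Of 12 adipocyte markers, 3 were above 0 in all 5 embryos and 1 below (7.8% and 9.01% of all features), with a median of 0.08. Pitx1, the hindlimb identity factor, had the opposite order, with 1.03, 1.12, 0.28, 0.65 and 1.77: embryo 5 was highest and embryo 3 lowest. Msx1, a homeobox gene of limb mesenchyme, had 0.82, 0.99, 0.56, 0.97 and 0.25. Of 32 limb and mesenchyme factors 4 were above 0 in all 5 embryos and 3 below, with a median of -0.00. Of 35 HOX genes 1 was above and 2 below, with a median of 0.02 (7.8% and 9.01% of all features for both lists). Msh6, a mismatch repair gene, had 0.66, 1.51, 1.19, 0.33 and 0.46, while the median of the 6 measured mismatch repair genes was 0.00. Tlr2, a receptor for bacterial lipoproteins, had 1.56, 0.55, 1.21, 0.68 and 0.42, but its embryo 1 value rests on array 1 at 6.09. The other 3 arrays of that embryo lay between -0.44 and 0.50.

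Several matrix genes varied widely between embryos. Dcn had 0.38, 1.88, 4.63, 0.49 and -0.37 in embryos 1 to 5, an SD of 1.98. In embryo 3 all 4 arrays lay between 4.42 and 5.07, and in embryo 5 between -0.45 and -0.25. Lumican, Lum, a related proteoglycan, had 0.39, 1.15, 2.18, 0.80 and -0.42, and Postn, periostin of loose mesenchyme, had -0.42, 0.26, 1.42, 0.40 and -0.82. These genes shared an order with embryo 3 at the top and embryo 5 at the bottom. Col1a1, the main chain of type I collagen, ran the other way, at -0.52, -1.74, -1.34, -0.52 and 1.34. Col2a1, the cartilage collagen, had 0.38, -0.98, -3.22, -0.26 and 2.10. Of 18 fibrillar and basement membrane collagens 2 were above 0 in all 5 embryos and 1 below (7.8% and 9.01% of all features), with a median of 0.06, and Col12a1, a collagen on the surface of fibrils, averaged -0.26. Loxl4, a lysyl oxidase that crosslinks collagen and elastin, varied less: it had -1.12, -1.03, -0.98, -0.59 and -0.53, and passed without array 4 of embryo 4 (mean -1.02, adjusted p = 0.048 by limma) but not without the 3 doubted arrays (0.0833). Thbs1, the matricellular protein thrombospondin 1, had -1.57, -1.85, -1.86, -0.35 and -0.35, and Ccn2, connective tissue growth factor, had -0.34, -0.87, -1.88, -0.13 and -0.35. Of 19 fibronectin and matricellular genes measured, 3 were below 0 in all 5 embryos and 1 above (9.01% and 7.8% of all features). Their median was -0.0, and the gene above was Sparcl1, at a mean of 0.56.

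The genes that varied most, by SD over embryos among 1094 genes with a ratio of variance between embryos to that within them of at least 10, were Dcn, Col2a1, Eif2s3y, Lgr5, Pdpn, Tinagl1, Ccl11 and Mgst1. They were picked for this variation, so their values are given without a test. Lgr5, a receptor for R-spondins, was 3.91 in embryo 3 and between -0.84 and 0.53 in the others. Pdpn, podoplanin of mesothelium and stroma, had -1.03, 0.43, 2.82, 0.25 and -2.04. Tinagl1, a basement membrane protein, ran opposite at -0.15, -2.13, -2.86, -0.50 and 1.15. Ccl11, the eosinophil chemokine eotaxin, was 3.33 in embryo 3 and between -0.11 and 0.85 in the others, and Mgst1, a microsomal glutathione transferase, had -0.16, 1.29, 2.84, 0.04 and -0.87. Embryo 3 was the highest or the lowest for each of the 8 genes, and embryo 5 was at the other end for all but Ccl11. Embryos 2 and 3 were hybridised on AYX and AYY arrays only, so for them series and embryo cannot be told apart.

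**Figure D4:**
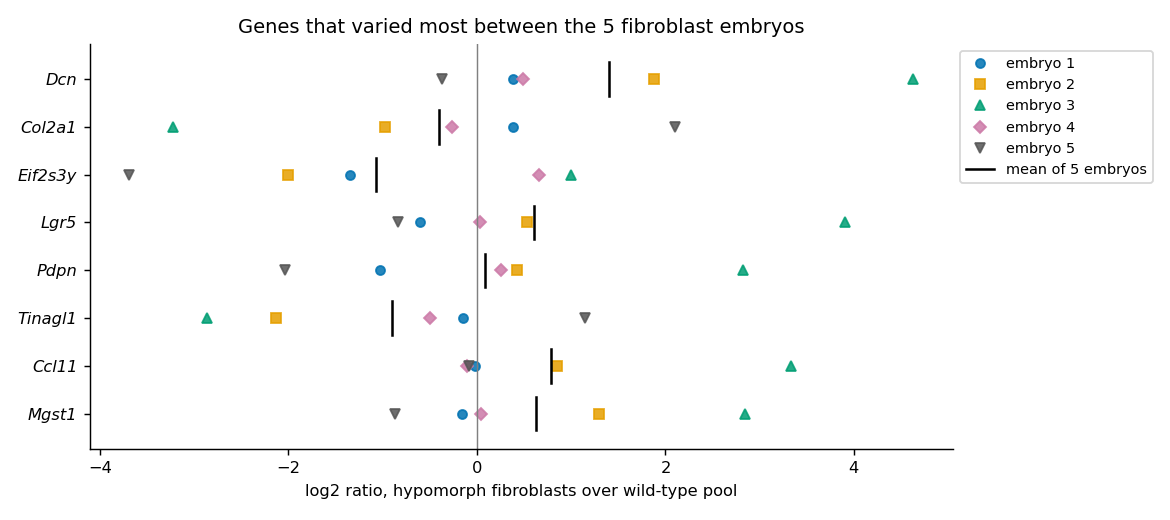
The 8 genes with the largest SD over the 5 fibroblast embryos among genes that varied more between embryos than within them, with the log2 ratio of hypomorph fibroblasts over wild-type pool on the x axis, a symbol per embryo and a bar at the mean. Embryo 3 lies at an extreme for all 8 genes, and for Dcn, Eif2s3y, Lgr5, Pdpn, Ccl11 and Mgst1 it is the highest.

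Cell cycle genes varied with the embryo as well. The median of 31 measured genes was 0.23, and it was 0.40, 0.27, -0.24, 0.07 and 0.59 in embryos 1 to 5, so embryo 3 lay below the pool and embryo 5 highest. Of these genes 3 were above 0 in all 5 embryos and none below (7.8% and 9.01% of all features): Ccna2, the S and G2 phase cyclin A2 (0.62), Bub1b of the spindle checkpoint (0.43) and Cdc6 of replication licensing (0.37). None of the 31 passed, with all arrays, without array 4 of embryo 4 or with the series of array names as a term. The p53 targets Ccng1, cyclin G1 (-0.90, -0.36, -0.67, -0.37 and -1.07), and Pmaip1, the apoptosis inducer Noxa (-0.51, -1.0, -1.33, -0.30 and -0.26), were below the pool in all 5 embryos. They were the 2 genes below 0 in all 5 embryos among 23 measured p53 and senescence genes, and 1 was above. These counts are near the 9.01% and 7.8% of all features, and the median of the list was -0.03. Of 22 hypoxia and glycolysis genes 4 were below 0 in all 5 embryos and none above (9.01% and 7.8% of all features), with a median of -0.06. The 4 included lactate dehydrogenase Ldha (-0.45), aldolase Aldoa (-0.58) and the angiogenic factor Vegfa (-0.32). Of 13 prostaglandin genes 3 were below and 1 above (9.01% and 7.8% of all features), with a median of -0.01. Ptgs2, the inducible cyclooxygenase, had -0.59, -0.60, -0.98, -0.31 and -0.62, and Pla2g4a, the phospholipase that frees arachidonate, had -0.42, -0.32, -0.45, -0.36 and -0.49. The embryos of Pla2g4a differed little, with an SD of 0.07, yet its mean of -0.41 had an adjusted p of 0.115 by limma. Ptges, the terminal synthase, was the gene above, led by embryo 4 at 0.86, against 0.05 to 0.16 in the others, and that value rests on array 1 at 3.62.

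Counts in the signalling lists stand against 7.8% of all features above 0 in all 5 embryos and 9.01% below. Of 19 Toll-like receptor and signalling genes 3 were below 0 in all 5 embryos and 2 above. Ripk2, the kinase of Nod receptors, had -0.90, -1.05, -1.50, -0.48 and -0.67 and passed without array 4 of embryo 4 (mean -0.98, adjusted p = 0.049 by limma) but not without the 3 doubted arrays (0.0833). Irak2, an adaptor kinase, averaged -0.42, and Tlr4, the endotoxin receptor, -0.30. Of 26 interferon-stimulated genes 4 were above 0 in all 5 embryos and none below, with a median of 0.10, and Isg15, a ubiquitin-like modifier, averaged 0.38. Of 24 TGF-beta and BMP pathway genes 4 were below and none above: Fst, an activin trap, averaged -0.65, the receptor Bmpr1a -0.53 and Inhba, an activin subunit, -0.39. Of 31 axon guidance genes 5 were above and none below (7.8% and 9.01% of all features). Robo1, a Slit receptor, had 0.57, 1.17, 1.37, 0.55 and 0.09, and Epha7, an ephrin receptor, had 0.48, 0.76, 0.92, 0.39 and 0.39. Without array 4 of embryo 4 none of the guidance genes passed, and with the series of array names as a term 6 passed as higher (3.43% of all features). Of 24 imprinted genes 1 was above in all 5 embryos, the growth restrainer Cdkn1c (0.60, 1.09, 1.37, 0.14 and 0.35), and 1 below, the adaptor Grb10 (-0.61, -0.81, -0.83, -0.22 and -0.20).

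The targeted gene did not pass the test. Dnmt3b had -0.00, 0.18, 0.11, -0.01 and 0.25, a mean of 0.11 ± 0.11 (SD, n = 5, adjusted p = 0.359 by limma). The sources used here do not say which part of the transcript its single probe reads, so the ratio does not check the genotype. Dnmt1, the maintenance enzyme, averaged -0.01 ± 0.12, Dnmt3a, the other de novo enzyme, 0.03 ± 0.08 and Dnmt3l, their germ line cofactor, 0.01 ± 0.08 (SD, n = 5 each). The spread between embryos exceeded the mean for Dnmt1, Dnmt3a and Dnmt3l. Of 21 genes of the methylation machinery 5 were above 0 in all 5 embryos and 1 below (7.8% and 9.01% of all features). Mbd1, a reader of methylated CpG, had 0.41, 0.91, 0.64, 0.15 and 0.34, and Cdca7, an ICF syndrome gene, had 0.54, 0.45, 0.02, 0.16 and 0.64.

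Some genes of the Y chromosome differed between embryos, and the sexes of the embryos and of the pool are not in the labels. Eif2s3y, a translation factor, had -1.35, -2.0, 1.0, 0.66 and -3.69, and Kdm5d, a histone demethylase, had -0.73, -0.76, 0.05, 0.30 and -1.12. Embryo 5 was lowest and embryo 3 or 4 highest for both. Embryo 4 owes its sign for Eif2s3y to array 4 at 3.16, since its other arrays lay between -0.51 and 0.35. Uty had -0.25, -0.37, -0.05, -0.01 and -0.53. The Y-linked genes Sry (-0.06 ± 0.09) and Usp9y (0.0 ± 0.14) varied less between embryos (SD, n = 5 each). Xist, which coats the inactive X chromosome, ran between -0.15 and 0.33.

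Marker lists of other cell types had medians near 0. They were -0.02 for 11 endothelial, 0.02 for 14 neural and glial, -0.01 for 14 cartilage and bone, -0.04 for 15 epithelial and keratin and 0.08 for 13 blood cell markers. Single markers moved with single embryos: Laptm5, a leukocyte lysosomal protein, was highest in embryo 5 (1.4, from 1 array at 5.6), and the globin gene Hba-a1 in embryo 3 (2.16). The 18 fibroblast markers had a median of 0.03, which was 0.16 in embryo 3 and -0.15 in embryo 5. Pdgfra, a receptor of mesenchyme, was 1.79 in embryo 3 and between -0.26 and 0.41 in the others. Cd34 was 2.28 in embryo 3 and -0.07 in embryo 5. A ratio carries no level, so the fibroblast label itself could not be checked against these genes. Within a culture, a different share of a cell type and a different amount of RNA per cell cannot be told apart, and the part of cell makeup in the ratios above was not tested.

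Fibroblasts and thymus were then set against each other over 10 embryos, each tissue relative to its own pool. Of 21852 features, 39 had a higher ratio in fibroblasts than in thymus (0.178%) and 51 a lower one (0.233%). Of the 47 named genes on the lower side, 46 were below 0 in all 5 fibroblast embryos (9.01% of all features). Of the 35 on the higher side 26 were above 0 in all 5 (7.8% of all features). The same fibroblast values entered the selection of these genes, so both counts are no independent support. The ages of the embryos differ between the tissues, and age and tissue cannot be told apart. Thymus was hybridised on AYT arrays only.

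Ifi202b had the lowest ratio in fibroblasts relative to thymus. It averaged -4.07 ± 0.79 in fibroblasts and 0.34 ± 0.88 in thymus (SD, n = 5 each), a difference of -4.41 (adjusted p = 0.00866 by limma over 10 embryos), and the thymus embryos lay at 1.15, 0.63, 0.52, -1.17 and 0.56. No fibroblast embryo reached the range of the thymus embryos. Cd44 averaged -1.95 ± 0.72 in fibroblasts and 0.02 ± 0.07 in thymus (SD, n = 5 each), a difference of -1.97 (adjusted p = 0.0298 by limma). F3 was -0.99 in fibroblasts and 0.00 in thymus (difference -0.99, adjusted p = 0.00866 by limma). Cap1 (-1.12), Chp1 (-1.09), Tll1 (-1.04), Ccng1 (-1.0), Ripk2 (-0.99) and Loxl4 (-0.85) also had a lower ratio in fibroblasts, with adjusted p between 0.0241 and 0.038 by limma. Sfrp2 had a higher ratio in fibroblasts: it averaged 1.94 ± 0.88 in fibroblasts and -0.50 ± 0.34 in thymus (SD, n = 5 each), a difference of 2.44 (adjusted p = 0.0324 by limma). On AYT arrays alone the fibroblasts averaged -4.17 for Ifi202b, -1.45 for Cd44, -1.10 for F3 and 1.46 for Sfrp2, on the same side of their thymus means.

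For Mfap4, H2bu2 and Fxyd1 the thymus mean lay below its pool, though not past limma's test against 0 (adjusted p = 0.053, 0.112 and 0.053). Mfap4, an elastic fibre protein, had 0.66, -0.01, 0.77, 0.55 and 1.38 in fibroblasts, against -0.38, -0.42, -0.51, -0.53 and -0.67 in thymus (difference 1.17, adjusted p = 0.0412 by limma). Its value in fibroblast embryo 5 rests on array 3 at 5.24. H2bu2, a histone H2B gene, was at -0.01 ± 0.16 in fibroblasts and -1.11 ± 0.47 in thymus (SD, n = 5 each; difference 1.10, adjusted p = 0.0462 by limma). Fxyd1, a regulator of the sodium pump, averaged 0.28 in fibroblasts and -0.48 in thymus (difference 0.76, adjusted p = 0.0464 by limma). Pcp4l1 (0.73) and Mrpl55, a mitochondrial ribosomal protein (0.71), had a higher ratio in fibroblasts too. Pcp4l1 averaged 0.58 in fibroblasts and -0.15 in thymus, and Mrpl55 0.38 and -0.32. Of the lists, the actin regulators had 1 gene with a lower ratio in fibroblasts and none with a higher one, the hypoxia and glycolysis genes 2 and none, and the pericellular proteolysis genes 2 and none, while neither germ cell list held any. The axon guidance genes, the secreted Wnt antagonists and the blood cell markers each had 1 with a higher ratio, the elastic fibre genes 1 higher and 1 lower, and the Ifi200, Toll-like receptor, p53 and prostaglandin lists each 1 lower, against 0.178% of all features higher and 0.233% lower. Without array 4 of embryo 4 the count was 126 higher and 165 lower, and without the 3 doubted arrays 43 and 64.

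**Figure D5:**
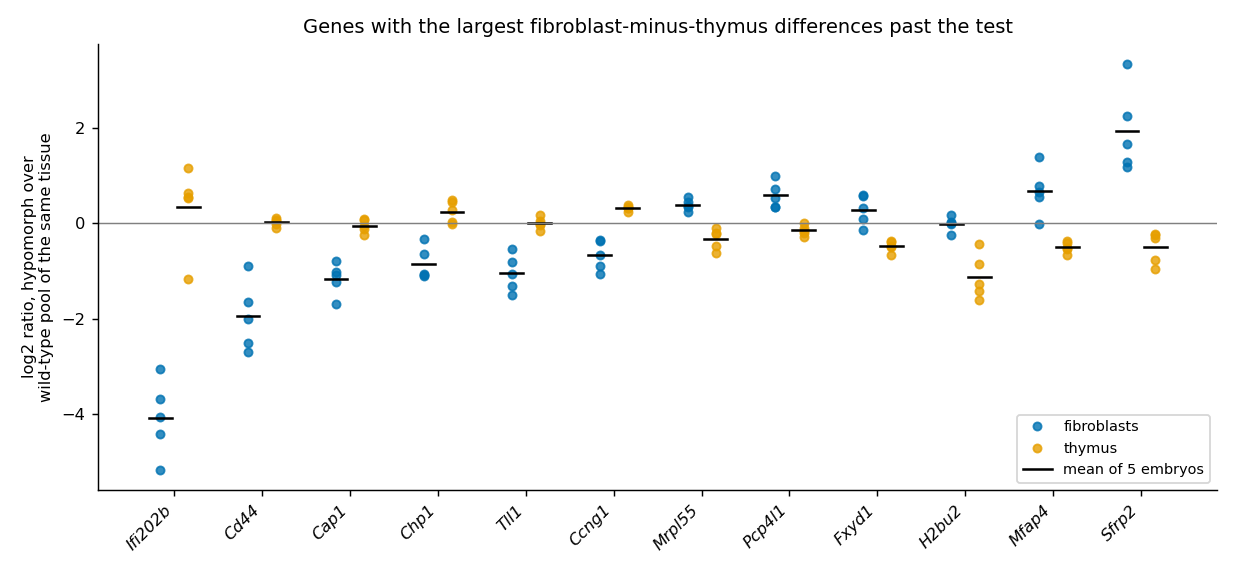
The 12 genes with the largest fibroblast-minus-thymus differences among those past the test, 6 on each side, with the log2 ratio of hypomorph over the wild-type pool of the same tissue on the y axis, a point per embryo (fibroblasts left, thymus right) and a bar at the mean. The fibroblast embryos lie away from 0 for Ifi202b, Cd44 and Sfrp2, whereas for H2bu2 it is the thymus embryos that do.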

How the data were processed

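Amplified RNA of each hypomorph was hybridised on 2-colour arrays against the wild-type pool, in both dye orientations, per the labels' protocols and the series' design text. The authors deposited log2 ratios, with a value for each spot of an array. How spots were quantified, corrected for background and normalized is not stated by the sources used here. Scanner intensities were not used, so signal over background is unknown and the precision is limited by the number of embryos. Both orientations run the same way: fibroblast ratios reached the upper bound of 16.61 on arrays with the hypomorph in Cy5 only (237 values) and the lower bound on arrays with it in Cy3 only (256 values). Pool over hypomorph would give that pattern too, so the bounds do not fix the direction. The deposited log2 ratios were taken as hypomorph over pool because the design text calls the pool the reference RNA. The direction, the log base and the reason for the uncentred medians (-0.887 to 0.909) are not stated by the authors.

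Values at the bound were set missing, arrays were centred on their median, spots of 1 symbol were averaged, and arrays were averaged within each orientation and then over both. The embryo was the replicate and its arrays technical repeats. Of 25344 spots 21111 had 1 gene symbol, none had several and 4233 had none. Symbols were updated through RefSeq (GRCm38.p6): 17069 were current, 3974 updated and 68 kept. Features needed a value in all 5 embryos. The ratio was tested against 0, and fibroblast minus thymus over 10 embryos, with lmFit and eBayes of limma 3.58.1 in R 4.3.3, in functions tested on simulated data. Genes were named by rule: the 12 highest and 12 lowest means among genes of 1 sign in all 5 embryos, up to 4 members per list of at least 0.25 in size and 1 sign, the DNA methyltransferases, Y-linked genes and Xist, the 8 most variable genes, and up to 6 per side for the difference. Other members named within a list (Mmp3, Actn1, Fscn1, Twf1, Capzb, Dkk2, Sfrp1, Lum, Postn, Col1a1, Stag3, Tex101, Pou5f1, Nanog, Stra8, Hba-a1, Pdgfra and Cd34) were chosen after their values were seen. The genes, the 37 lists and the tests were chosen with earlier results of these data known, and the series of array names was added as a term after seeing the data. Nothing says that embryos with the same number in fibroblasts and thymus are related: their profiles correlated between -0.0353 and 0.0884.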

Additional observations from a re-analysis of the deposited data

Results flagged for a closer look

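In 6 genes named by the rule, 1 of the 5 fibroblast embryos stood far from the others by Dixon's ratio, above its critical value of 0.71. Such a gap also arises by chance in a small share of groups. Ppp3r1 was -0.08 in embryo 4, Inhba -0.82 in embryo 3, Ptges 0.86 in embryo 4 and Eng, the endothelial coreceptor endoglin, 0.92 in embryo 5. Lgr5 was 3.91 and Ccl11 3.33 in embryo 3. For Ptges, 1 of the 4 arrays of embryo 4 was at 3.62 and the others lay between -0.21 and 0.24, whereas for Eng all 4 arrays of embryo 5 lay between 0.82 and 0.98.

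For 19 named genes the ratio differed between fibroblasts and thymus in limma's test of the difference over 10 embryos. Fibroblast minus thymus was -4.41 for Ifi202b, -1.97 for Cd44, -1.12 for Cap1, -1.09 for Chp1, -1.04 for Tll1, -1.0 for Ccng1, -0.99 for F3 and -0.99 for Ripk2. It was -0.85 for Loxl4, -0.63 for Ptgs2, -0.62 for Ldha and -0.45 for Vegfa. On the other side it was 2.44 for Sfrp2, 1.17 for Mfap4, 1.10 for H2bu2, 0.76 for Fxyd1, 0.73 for Pcp4l1, 0.71 for Mrpl55 and 0.69 for Epha7. All 19 passed without array 4 of embryo 4, 14 passed without the 3 doubted arrays, and none passed with the hypomorph in Cy5 alone.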

How the results depend on the processing

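The count of fibroblast features past the test was 1 with all arrays, with probes tested singly, with embryo weights and with robust moderation. It was 8 with values as deposited (uncentred), 2 with arrays scaled to equal spread, 0 with values at the bound kept and 0 with a value in at least 3 embryos required. It was 6298 with the hypomorph in Cy5 alone, 8145 with it in Cy3 alone and 2106 with single arrays and the embryo as a random block. It was 83 without array 4 of embryo 4, 7 without the 3 doubted arrays, 0 without array 4 of embryo 1, 0 without array 2 of embryo 1, 1321 with the series of array names as a term, and 0 on arrays of either series alone. Leaving out 1 embryo gave 0 to 39, with 39 without embryo 4. For fibroblast minus thymus the count was 90, and it was 17 as deposited, 0 with Cy5 alone, 285 with Cy3 alone, 291 without array 4 of embryo 4, 33 without array 4 of embryo 1 and 34 without array 2 of embryo 1. Leaving out 1 fibroblast embryo, with all 5 thymus embryos kept, gave 7 to 379. With the embryo number as a replicate block it was 1, but the numbers do not pair the tissues: same-numbered profiles correlated between -0.0353 and 0.0884. Features higher in all 5 embryos by at least 0.5 numbered 88, with 209 for Cy5 alone, 1793 for Cy3 alone and 71 to 207 with 1 embryo left out. Features lower numbered 143, with 1711, 376 and 129 to 251. The cause of these shifts was not tested.

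Of 99 named genes 84 kept the sign of their fibroblast mean under every alternative that gave them a value, and Tlr2 and Pitx1 had none in the fit over single arrays. With Cy5 alone the mean turned to 0.02 for Ltbp2, -0.13 for Efna2, -0.11 for Tek, -0.04 for Laptm5, -0.03 for Dnmt3l, -0.64 for Usp9y and -0.05 for Ccl11. With Cy3 alone it turned to 0.18 for Dnmt1, -0.07 for Pdpn and 0.34 for H2bu2. As deposited it was 0.01 for Dnmt1 and 0.01 for H2bu2, and after scaling it was -0.00 for Usp9y. On AYT arrays alone it was 0.03 for Sry, -0.05 for Usp9y, 0.77 for Col2a1, -0.49 for Lgr5, -0.97 for Pdpn, 0.39 for Tinagl1, -0.10 for Ccl11 and -0.45 for Mgst1. H2bu2 was 0.09 on AYX and AYY arrays alone, 0.01 with the series term and 0.00 without array 2 of embryo 1, where Pdpn was -0.04. Leaving out 1 embryo gave -0.05 to 0.02 for Dnmt1, -0.02 to 0.03 for Dnmt3l, -0.02 to 0.06 for Usp9y, -1.02 to 0.31 for Col2a1, -0.22 to 0.97 for Lgr5, -0.59 to 0.62 for Pdpn and -0.06 to 0.05 for H2bu2.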
